A study of Mus musculus with 36 samples.

Results

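Chemokines and interleukins are small secreted proteins through which cells recruit and instruct one another, and their transcripts were followed here from mouse embryonic fibroblasts (MEFs) through reprogramming to pluripotent cells, with and without the gene Zfp266. All genes named Ccl, Cxcl or Il followed by a number and, where present, the letter a or b were taken, which gave 30 rows of the 21442 genes in the count table, with 28 gene symbols. Of these rows, 10 were CC chemokines, 8 were CXC chemokines and 12 were interleukins. Ccl27a was listed under 3 gene identifiers, ENSMUSG00000073888 on chromosome 4 and ENSMUSG00000093828 and ENSMUSG00000095247 on scaffolds outside the assembled chromosomes. These and Ccl27b are near-identical copies, so the split of reads among them is uncertain.

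Bulk RNA-seq was available for 36 libraries in 12 groups of 3, made of 6 stages (MEF, D3, D5 and D7 of reprogramming, iPSC and ESC) in control (wild type, WT) and Zfp266 knockout (KO) cells. Zfp266 encodes a KRAB zinc finger protein. MEFs came from E12.5 chimeras of a 129 ESC line aggregated with host B6CBAF1 embryos, carried Cas9, a Nanog-GFP reporter and a doxycycline-inducible cassette of the 4 reprogramming factors (MKOS) in the Sp3 locus, and were harvested 96 h after transduction with a non-targeting or a Zfp266 sgRNA. For D3, D5 and D7 the same kind of transduced MEFs was mixed with an excess of unmodified 129 MEFs, given 300 ng/ml doxycycline and 10 ug/ml vitamin C in ESC medium with LIF, and sorted for the mOrange reporter of the cassette. KO cells at these 4 stages were a population of edited cells, whereas the iPSCs were 3 clones per genotype grown in puromycin without doxycycline. KO ESCs were grown from single cells of the Cas9 ESC line. The number of KO ESC clones and the origin of the WT ESC samples are not stated. MEF medium held FGF2 and heparin and the MEF libraries were neither mixed nor sorted, so that host cells may be among them, and medium, mixing and sorting cannot be told apart from the first 3 days of reprogramming.

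Chemokines carry conserved cysteines near the N terminus, adjacent in the CC class and separated by a residue in the CXC class, and act through G protein-coupled receptors on leukocytes and other cells. Fibroblasts are a known source of several of them, among them Ccl2, Cxcl1 and Cxcl12, and many are induced by NF-kB downstream of innate immune receptors. Interleukins act through cytokine receptors that often share subunits, such as gp130 (Il6st) for Il6 and Il11.

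The libraries held 19224103 to 39610939 counts each, so that 3 reads, the upper limit that a count of 0 allows, corresponded to 2.31 to 5.22 normalised counts, which covers counting error only. Zfp266 RNA remained in KO libraries, with 2949 ± 136 normalised counts in WT and 3200.0 ± 114 in KO MEFs (mean ± SD, n = 3). It was lower in KO in iPSCs (log2FC -0.39, DESeq2 FDR 9.9e-06) and higher in KO at D3 (log2FC 0.32, DESeq2 FDR 0.0088). Indels need not remove a transcript, and the cause of these levels was not tested. The label of the MEFs was borne out by 8 fibroblast markers, which summed to 602862 to 668677 normalised counts in MEF libraries and 28035 to 37606 in WT D3 libraries. The sum of 6 pluripotent cell markers was 19.7 to 30.8 in the MEF libraries and 93690 to 127635 in iPSC and ESC libraries. MEF KO replicate 3 stood apart: its Pearson r with the other 5 MEF libraries over all genes was 0.973 to 0.976, against 0.987 to 0.992 among those 5, and each MEF KO result is therefore also given without it. All groups share a dispersion estimate per gene, so this library also enters the standard errors at other stages. Comparisons without MEF KO cells were refitted without it only where the fit held just the groups compared. The study describes the reprogramming samples as independent, but neither it nor the labels state separate cultures or animals for the MEF and reprogramming replicates, so p-values there measure the spread between these libraries, which may be technical. In bulk RNA, fewer cells that express a gene and less RNA per cell cannot be told apart.

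Together the 30 rows made up a small part of the RNA. They took 0.032% of all counts in WT MEFs, 0.009% at D3, 0.012% at D5, 0.0105% at D7, and 0.0022% and 0.0024% in WT iPSCs and ESCs. Rows with a mean of at least 10 normalised counts numbered 24 in WT MEFs, 19, 22 and 22 at D3, D5 and D7, and 11 and 13 in WT iPSCs and ESCs. The transcript that led also changed, with Cxcl12 taking 59.3% of these counts in WT MEFs, Ccl7 29.2% at D3, and Cxcl16 36.9% at D5 and 34.8% at D7. In WT iPSCs Ccl25 took 20.8%. Ccl25 shares 204 exonic bases with Elavl1 on the opposite strand, and whether reads were counted by strand is not stated. Per kilobase of annotated exon and averaged over the 12 groups, the level was 571 for Ccl7, 178 for Cxcl14, 173 for Ccl2, 166 for Cxcl16, 151 for Cxcl12, 65.6 for Cxcl5 and 64.6 for Il2, in normalised counts per kilobase. Without MEF KO replicate 3, described below, the Cxcl5 value was 22.7 and the Cxcl14 value 162. Il2, the growth factor of T cells, was thus among the higher rows, with 49.6 to 125 normalised counts in each of the 36 libraries. The T cell marker Cd3e had no read in the 12 MEF and D3 libraries, the 6 D5 libraries and the 3 WT D7 libraries, and 12.9 to 90.7 normalised counts in the iPSC and ESC libraries.

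**Figure D1:**
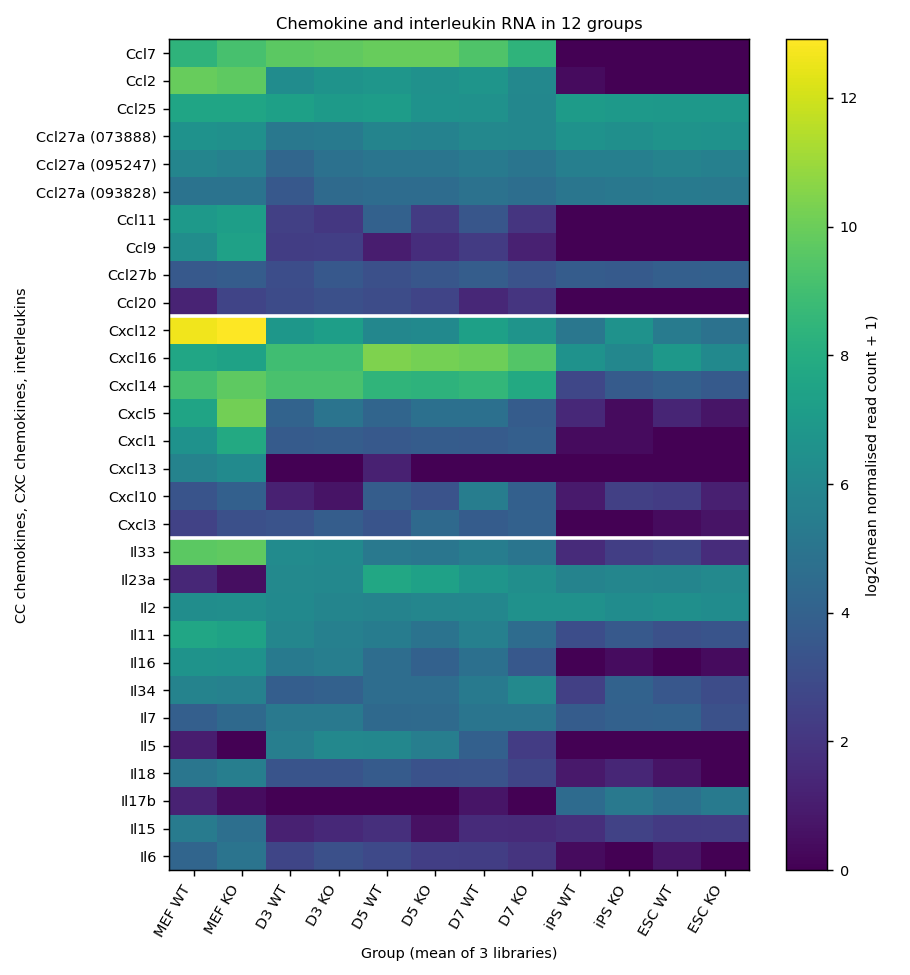
Level of each of the 30 chemokine and interleukin rows (vertical axis) in the 12 groups (horizontal axis), coloured by log2 of the mean normalised count plus 1 over 3 libraries, from dark (0) to yellow (highest). White lines part CC chemokines, CXC chemokines and interleukins; Ccl7, Ccl2, Ccl11 and Cxcl1 are dark in iPSCs and ESCs, while Il2, Ccl25 and the Ccl27 rows are coloured in all groups.

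The promoters of 5 of these genes are shown because they hold the letters of known binding motifs and because their transcripts moved between stages or in MEF KO replicate 3. Each sequence is the 250 bases before the RefSeq start on GRCm38.p6, with motif matches in capitals, and was searched on both strands for NF-kB letters (3 guanines, any 2 bases, 3 thymines and 2 cytosines), TGANTCA (AP-1), the letters of the interferon-stimulated response element (ISRE, a guanine and 3 adenines, any 2 bases, and again a guanine and 3 adenines) and TATAAA. Cxcl1 (chr5:90890995-90891244, plus strand), Cxcl3 (chr5:90785851-90786100, plus strand), Il6 (chr5:30012864-30013113, plus strand) and Ccl9 (chr11:83578637-83578886, minus strand) hold the NF-kB letters, and Cxcl10 (chr5:92348890-92349139, minus strand) the ISRE letters.
Cxcl1: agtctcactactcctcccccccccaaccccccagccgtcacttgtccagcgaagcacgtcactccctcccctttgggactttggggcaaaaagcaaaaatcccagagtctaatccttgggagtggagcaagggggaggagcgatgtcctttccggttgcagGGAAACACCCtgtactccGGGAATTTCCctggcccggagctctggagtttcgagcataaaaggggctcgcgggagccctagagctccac
Cxcl3: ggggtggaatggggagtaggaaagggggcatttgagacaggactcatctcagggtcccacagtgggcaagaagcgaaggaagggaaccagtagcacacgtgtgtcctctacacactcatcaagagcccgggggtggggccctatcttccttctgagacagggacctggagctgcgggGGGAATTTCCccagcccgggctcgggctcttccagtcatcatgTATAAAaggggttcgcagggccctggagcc
Il6: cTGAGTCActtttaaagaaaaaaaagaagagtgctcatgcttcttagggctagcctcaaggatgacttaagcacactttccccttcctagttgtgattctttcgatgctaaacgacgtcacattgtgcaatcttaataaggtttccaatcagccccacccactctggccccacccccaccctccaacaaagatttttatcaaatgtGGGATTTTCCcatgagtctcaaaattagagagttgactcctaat
Ccl9: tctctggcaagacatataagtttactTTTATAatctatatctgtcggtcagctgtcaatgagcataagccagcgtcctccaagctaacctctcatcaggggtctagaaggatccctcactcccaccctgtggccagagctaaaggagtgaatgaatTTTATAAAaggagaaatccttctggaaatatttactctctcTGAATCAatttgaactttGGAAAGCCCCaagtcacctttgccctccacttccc
Cxcl10: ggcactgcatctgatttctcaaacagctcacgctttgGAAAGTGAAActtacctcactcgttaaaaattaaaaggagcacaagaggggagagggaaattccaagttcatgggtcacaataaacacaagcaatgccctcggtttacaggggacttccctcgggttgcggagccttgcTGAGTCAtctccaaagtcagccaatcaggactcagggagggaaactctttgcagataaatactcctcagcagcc
Cxcl1 and Cxcl3 both hold the run GGGAATTTCC, and in Ccl9 capitals also mark overlapping TATA matches. RefSeq windows, 250 bases before to 50 after a start, were available for 18 of the 28 symbols. Some symbols have several starts, which gave 28 windows. Of these 28, NF-kB letters were in 6 (of Ccl20, Ccl9, Cxcl1, Cxcl3, Il16 and Il6), AP-1 letters in 8, ISRE letters in 2 (of Cxcl10 and Cxcl14) and TATAAA in 9. Over 32851 promoter windows of the same length the shares of windows were 1.63%, 7.81%, 3.44% and 13.6%. A match is a run of letters and not evidence of binding. Close forms of the NF-kB letters were not counted, such as gggaaattcc and gggacttccc in the Cxcl10 sequence. A window without a match can therefore hold such forms.

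The step from WT MEFs to WT D3 cells changed most of the rows. Of 29 rows with an FDR, 5 rose and 16 fell (DESeq2, FDR < 0.05 and absolute log2FC > 1, which is what rose and fell mean below), while 19.5% of all genes tested rose and 25.4% fell. The median log2FC of the 29 rows was -1.64, or -1.47 with rows at 0 set to the bound that 3 reads per library allow, and -0.0054 over all genes tested. The count stayed between 20 and 23 when any 1 library of the 2 groups was left out. The fibroblast markers moved over the same step, with 7 of 8 fallen, and so did the 4 epithelial markers, which summed to 1804 to 2081 normalised counts in WT MEFs and 21322 to 27545 at D3, with Cdh1, Epcam and Krt8 risen and Krt18 fallen. The part of these markers in the changes was not tested.

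**Figure D2:**
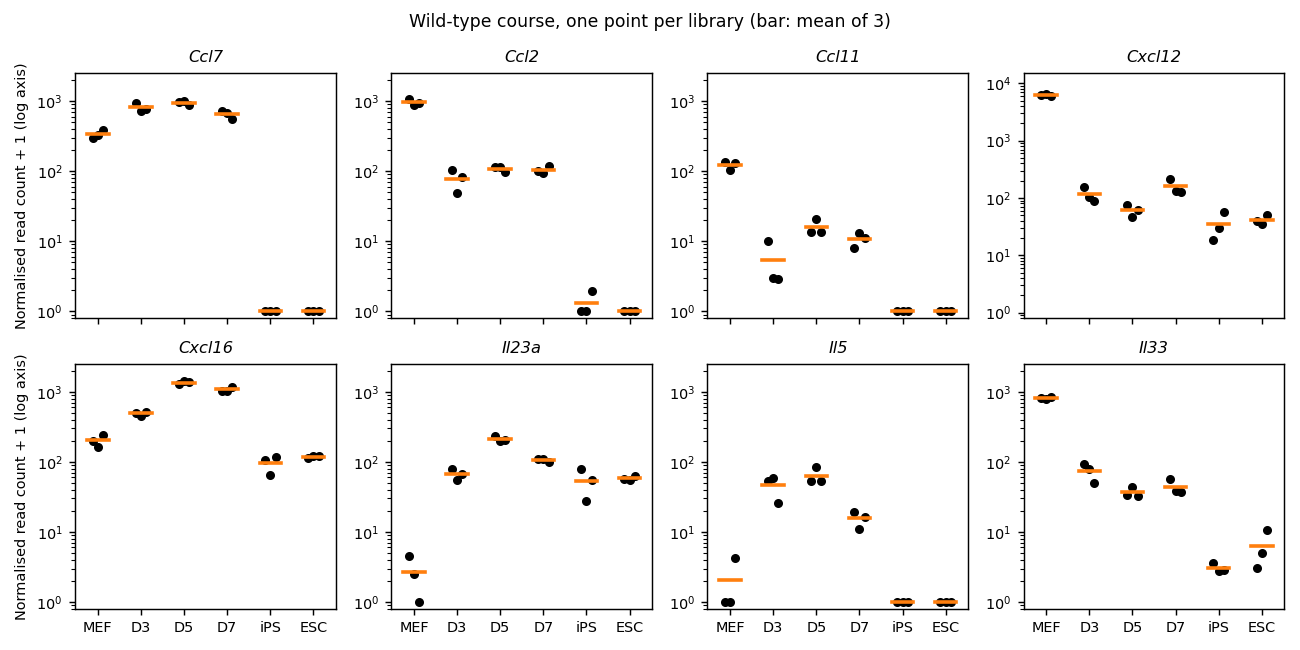
Normalised counts plus 1 on a log axis in each WT library (points) and the mean of 3 (bar) at MEF, D3, D5, D7, iPSC and ESC for Ccl7, Ccl2, Ccl11, Cxcl12, Cxcl16, Il23a, Il5 and Il33. Ccl7, Cxcl16 and Il23a lie higher at D3 than in MEFs, Ccl2, Cxcl12 and Il33 lie lower, and Ccl7 and Ccl2 are at or near 0 in the pluripotent cells.

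Among the CC chemokines, neighbouring genes took different courses. Ccl2, Ccl7 and Ccl11 lie next to each other on the plus strand of chromosome 11 (GRCm38, chr11:82035571-82037453, chr11:82045712-82047525 and chr11:82057823-82062955). Ccl7, which attracts monocytes, had 296, 326 and 384 normalised counts in WT MEFs and 948, 710.0 and 774 at D3. All D3 libraries lay above all MEF libraries, and Ccl7 rose (log2FC 1.27, SE 0.15, DESeq2 FDR 6.1e-16). Ccl2, the main monocyte attractant of fibroblasts, had 1078, 882 and 947 in WT MEFs and 103, 48.0 and 80.4 at D3. It thus fell to well below every MEF library (log2FC -3.65, SE 0.30, DESeq2 FDR 7.0e-34). Ccl11, or eotaxin, which attracts eosinophils, had 134, 103 and 129 in MEFs and 9.17, 2.0 and 1.94 at D3 and also fell (log2FC -4.78, SE 0.49). Ccl9, a monocyte attractant of the same chromosome, fell from 79.2 ± 10.4 to 4.13 ± 2.83 (SD, n = 3). The 3 Ccl27a rows, a skin chemokine, fell by 1.44, 1.64 and 1.47 on the log2 scale. Ccl25, which directs cells to thymus and gut, had 192 ± 20.1 in MEFs and 159 ± 14.1 at D3 and did not pass the test (DESeq2 FDR 0.18).

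CXC chemokines followed 3 patterns at this step. Cxcl12, the ligand of Cxcr4 that holds stem cells in their niche, had 6298, 6564 and 6035 normalised counts in WT MEFs and 152, 102 and 89.2 at D3. The groups were far apart, and the fall was the steepest fitted among rows with reads in both groups (log2FC -5.78, SE 0.54, DESeq2 FDR 5.3e-26). Cxcl13, which attracts B cells, had 52.2, 37.9 and 72.2 in MEFs and no read in the 3 WT D3 libraries, so that it was at least 18.7-fold higher in MEFs by the floor of 3 reads per library. The neutrophil attractant Cxcl1 fell from 95.7 ± 3.88 to 11.9 ± 10.5 (log2FC -3.00, SE 0.68, DESeq2 FDR 1.8e-05). Cxcl5, a neutrophil attractant of the same cluster on chromosome 5, had 214, 176 and 169 in MEFs and 21.1, 18 and 9.69 at D3. DESeq2 gave no p for Cxcl5 because MEF KO replicate 3 exceeded its Cook's distance limit, and without that limit it fell (log2FC -3.52, FDR 4.4e-05). Cxcl16, a chemokine made as a membrane-bound protein, went the other way. It had 200.0, 162 and 243 in MEFs and 503, 454 and 515 at D3, with no overlap, and rose (log2FC 1.27, SE 0.17, DESeq2 FDR 1.6e-13). Cxcl14 had 548, 573 and 520.0 in MEFs and 613, 559 and 583 at D3, groups that overlap (log2FC 0.10, SE 0.32, DESeq2 FDR 0.81).

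Interleukins rose and fell in the same step. Il33, an alarmin of the IL-1 family stored in the nucleus, had 802, 779 and 841 normalised counts in WT MEFs and 91.7, 77.0 and 49.4 at D3. Every D3 library lay far below every MEF library (log2FC -3.47, SE 0.23, DESeq2 FDR 5.0e-49). Its receptor Il1rl1 fell as well, from 2410.3 to 8.27 (log2FC -8.18, SE 0.66, named after its values were seen). Il11 of the IL-6 family had 200.0, 179 and 206 in MEFs and 69.7, 40.0 and 70.7 at D3 (log2FC -1.70, SE 0.40), and its receptor Il11ra1 fell from 1846 to 30.4. Il15, Il16, Il18 and Il34 also fell, by 4.98, 1.36, 1.81 and 2.0 on the log2 scale, and for Il15 the MEF libraries were uneven, with 71.3, 25.7 and 25.5. Il6 fell by 1.68 on the log2 scale (DESeq2 FDR 0.025), a call that failed in 4 of the 6 leave-one-out fits (FDR 0.104 without WT D3 replicate 3).

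Il23a and Il5 appeared at D3. Il23a, the subunit particular to interleukin 23, had 3.48, 1.51 and 0 normalised counts in WT MEFs and 77.0, 54.0 and 66.9 at D3. Every D3 library lay above the MEF range (log2FC 5.57, SE 0.86, DESeq2 FDR 3.2e-10). Il12rb1, a receptor subunit for interleukins 12 and 23, went from 8.91 to 309.7 (log2FC 5.14, SE 0.45, named after its values were seen). Il5, the eosinophil growth factor, had 0, 0 and 3.18 in MEFs and 52.3, 58.0 and 25.2 at D3 (log2FC 5.07, SE 0.93, DESeq2 FDR 1.1e-07). Il5 shares 417 exonic bases with a gene on the opposite strand, Gm12214, and whether reads were counted by strand is not stated. Il17b shares 141 such bases, Cxcl10 133, Il7 105 and Il34 97 with other genes on the opposite strand. Il7, a lymphocyte survival factor, had 6.96, 19.7 and 14.9 in MEFs and 51.3, 31.0 and 26.2 at D3 (log2FC 1.36, SE 0.40, DESeq2 FDR 0.0011). Of 10 leukocyte markers 0 rose and 3 fell at this step, their sum was 672 to 756 in WT MEFs and 202 to 306 at D3, and Ptprc had 4.85 to 11.9 at D3.

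From D3 to D5 in WT cells, 5 of 28 rows rose and 1 fell, while 5.01% of all genes tested rose and 1.89% fell. Cxcl16 had 1271, 1401 and 1361 normalised counts at D5, all above its D3 libraries (log2FC 1.45, SE 0.16, DESeq2 FDR 1.5e-18). Il23a had 232, 200.2 and 207 at D5 and rose again (log2FC 1.69, SE 0.25, DESeq2 FDR 3.5e-10). The interferon-inducible T cell attractant Cxcl10, whose promoter is the last one printed above, had 0.917, 2.0 and 0.969 at D3 and 1.94, 21.7 and 15.6 at D5. Its D5 replicate 1 lay inside the D3 range and the other D5 libraries above it (log2FC 3.34, SE 0.98, DESeq2 FDR 0.0046). Ccl11 rose from 4.37 ± 4.16 to 14.9 ± 4.07 (log2FC 1.74) and the Ccl27a row ENSMUSG00000093828 from 10.6 ± 5.96 to 22.4 ± 7.05 (log2FC 1.08), and Il33 fell further to 33.0, 43.3 and 31.2 (log2FC -1.02, SE 0.27). The count of 6 became 3 without WT D3 replicate 2 or WT D5 replicate 3.

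From D5 to D7, Cxcl10 rose and Il5 and Il23a fell among 27 rows with an FDR, while 4.83% of all genes tested rose and 1.08% fell. Il5 had 51.5, 82.6 and 52.0 normalised counts at D5 and 18.3, 10.1 and 15.4 at D7, without overlap (log2FC -2.09, SE 0.44, DESeq2 FDR 3.7e-05). Il23a had 108, 108 and 99.8 at D7, below all D5 libraries (log2FC -1.02, SE 0.24, DESeq2 FDR 2.7e-04). Cxcl10 had 39.6, 40.3 and 52.5 at D7, above all D5 libraries (log2FC 1.76, SE 0.68, DESeq2 FDR 0.043). The Cxcl10 call was lost in 5 of 6 fits without 1 library, with FDR up to 0.164 without WT D5 replicate 1. Ccl7 had 968, 1011 and 870.2 at D5 and 712, 672 and 554 at D7 and passed at FDR alone (log2FC -0.56, SE 0.15, DESeq2 FDR 0.0015), as did Ccl25 (log2FC -0.58), at which rule 24.7% of all genes tested passed.

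In pluripotent cells most of the rows were at or near 0. Between WT D7 and WT iPSCs, 1 of 29 rows rose and 18 fell, while 20% of all genes tested rose and 25% fell. The median log2FC was -3.32, or -2.23 with rows at 0 set to their bound, and 0.0139 over all genes. Ccl7 had no read in the 12 iPSC and ESC libraries and was at least 243-fold higher in WT D7 cells than in WT iPSCs. Cxcl16 fell from 1025, 1038 and 1166 to 106, 63.7 and 117 normalised counts, which no longer overlapped (log2FC -3.50, SE 0.17, DESeq2 FDR 5.8e-91). Cxcl14, which attracts monocytes and is made by many epithelia, fell from 367, 394 and 367 to 3.45, 3.44 and 10.2 (log2FC -6.06, SE 0.46). Ccl2 had 98.4, 93.6 and 118 at D7 and 0, 0 and 0.928 in iPSCs. By the same floor Il16, Il5 and Cxcl3 were at least 9.71-fold, 5.50-fold and 4.72-fold higher at D7.

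A few rows held their level or rose. Il17b, a member of the IL-17 family, had 0, 0 and 2.06 normalised counts at D7 and 22.5, 14.6 and 28.8 in WT iPSCs, and rose (log2FC 5.01, SE 1.16, DESeq2 FDR 3.4e-05). It had 24.1, 15.2 and 40.0 in WT ESCs. Il23a kept 77.7, 26.7 and 54.7 in iPSCs and 55.2, 54.7 and 61.7 in ESCs, against 3.48, 1.51 and 0 in MEFs. Ccl25 was higher in iPSCs than at D7 at FDR alone, with 143, 159 and 108 against 96.4, 91.6 and 86.4 (log2FC 0.58, SE 0.19, DESeq2 FDR 0.0041), and so was the Ccl27a row on chromosome 4 (log2FC 0.53), where 35.8% of all genes tested were higher by that rule.

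Between WT ESCs and WT iPSCs no difference passed the test. Of 6 rows with an FDR, 0 were called in DESeq2, where 0.275% of all genes tested were, and edgeR called 0 as well. Of all 30 rows, 2 had an unadjusted DESeq2 p under 0.05. These were Cxcl14 with 24.1, 9.11 and 11.3 normalised counts in ESCs against 3.45, 3.44 and 10.2 in iPSCs (log2FC 1.39, SE 0.51, DESeq2 FDR 0.093) and Il33 (log2FC 1.39, SE 0.68). Without WT iPSC replicate 3 the count of called rows was 1, Cxcl14. Between WT MEFs and WT ESCs, 2 of 29 rows were higher in ESCs (Il23a and Il17b) and 15 lower, against 26% and 29.4% of all genes tested, and Ccl2 was at least 336-fold and Ccl7 at least 116-fold higher in MEFs. The median log2FC was -3.52, with rows at 0 at their bound too, and 0.0519 over all genes.

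Over the 12 group means on the log2(mean + 1) scale, the rows most like Ccl7 were Cxcl14 (Pearson r 0.975), Cxcl3 (0.961) and Ccl20 (0.928). Those most like Ccl2 were Il16 (0.982), Cxcl1 and Il18 (both 0.970). The 12 points share lower levels in the 4 pluripotent groups, and the values are a description only.

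Loss of Zfp266 was compared within each stage. In MEFs, 0 of 10 rows with an FDR were called in DESeq2, where 0.0287% of all genes tested were, and edgeR called 0. Of all 30 rows, 2 had an unadjusted DESeq2 p under 0.05 (Ccl7 and Cxcl1). Ccl7 passed at FDR alone, as 0.086% of all genes tested did, with 512, 507 and 707 normalised counts in KO MEFs against 296, 326 and 384 in WT. All KO libraries lay above all WT libraries (log2FC 0.77, SE 0.16, DESeq2 FDR 0.0019). Without KO replicate 3 the Ccl7 log2FC was 0.60 with FDR 0.118, and edgeR gave FDR 0.081 with all libraries. The Cxcl1 log2FC without KO replicate 3 was -0.03. Without that replicate 0 of 16 rows passed.

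MEF KO replicate 3 was set against the other 5 MEF libraries row by row. Of 25 rows with a median of at least 10 normalised counts in the other 5, it lay above all of them in 9, below all in 5 and inside their range in 11, while 32.1% of the 17147 genes with that median lay above and 41.3% below. Of the neutrophil attractants, Cxcl5 had 3065 against 169 to 214 and Cxcl1 500.0 against 91.3 to 98.4, whereas Cxcl3 had 11.7 against 0 to 12.7, inside the range. Ccl9 had 349.6 against 68.2 to 88.7, Cxcl14 1517 against 487 to 573, Cxcl12 12016 against 5443 to 6564 and Il6 50.8 against 13.9 to 20.4. The monocyte attractant Ccl2 went the other way, with 419.5 against 882 to 1111, and so did Il11, with 46.6 against 179 to 256. Of 25 NF-kB pathway genes, 7 lay above the other 5 libraries, among them the adaptor Myd88 with 2018 against 1150.0 to 1262, 11 lay below, among them the subunit gene Nfkb2 with 1079 against 1725 to 2029, and 7 lay inside. Its leukocyte markers summed to 383 against 672 to 837, its epithelial markers to 413 against 1804 to 2929, its endothelial markers to 738 against 303 to 376 and its fibroblast markers to 668677 against 602862 to 650973. The part of these differences in the chemokine levels was not tested.

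**Figure D3:**
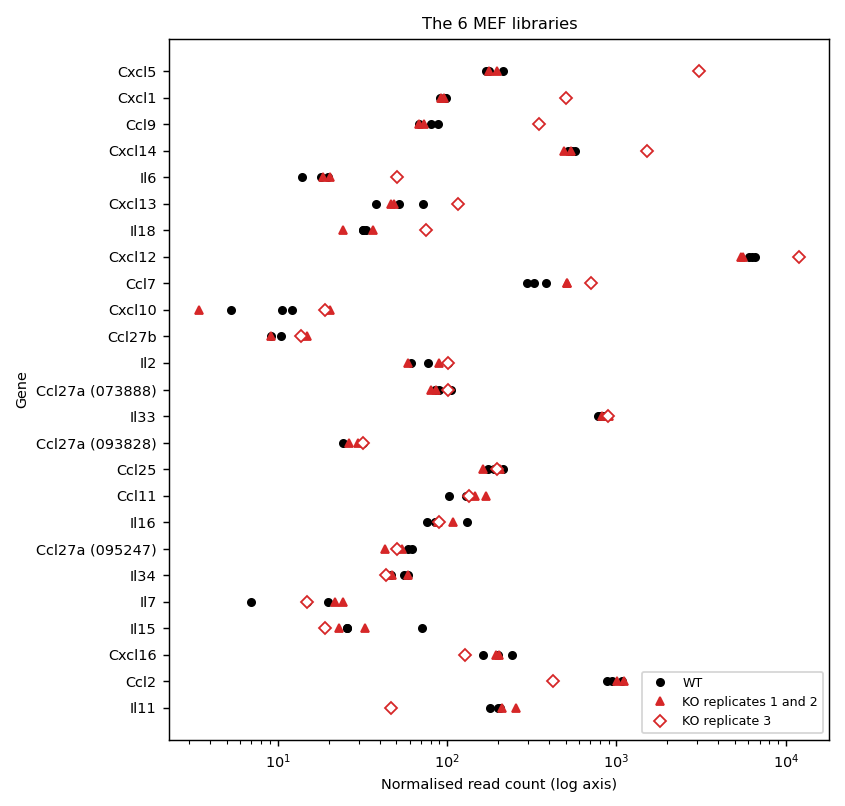
Normalised counts on a log axis in the 6 MEF libraries for the 25 chemokine and interleukin rows with a median of at least 10 in 5 of them, as black circles (WT), red triangles (KO replicates 1 and 2) and open diamonds (KO replicate 3). KO replicate 3 lies far above the others for Cxcl5, Cxcl1 and Ccl9 and below them for Ccl2 and Il11.

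At D3, 0 of 16 rows were called in DESeq2, where 0.162% of all genes tested were, and edgeR called 0. At FDR alone the count was 0 as well, against 0.493%. Of all 30 rows, 1 had an unadjusted DESeq2 p under 0.05, the Ccl27a copy ENSMUSG00000093828 (log2FC 0.98, DESeq2 FDR 0.285). Ccl7 had 958, 846 and 803 normalised counts in KO and 948, 710.0 and 774 in WT, and Cxcl16 had 432, 495 and 529 against 503, 454 and 515, so both overlapped.

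At D5, 1 of 20 rows was called, as lower in KO, where 0.379% of all genes tested were. This was Ccl11, with 4.77, 3.15 and 3.08 normalised counts in KO and 12.6, 19.6 and 12.49 in WT. The groups did not overlap, at levels near the floor of 3 reads in KO (log2FC -2.03, SE 0.55, DESeq2 FDR 0.0064). The call was lost without WT D5 replicate 2 (FDR 0.054) or KO D5 replicate 3 (FDR 0.054), and no FDR was given without WT D5 replicate 3 or KO D5 replicate 2. It had FDR 0.062 with the replicate block and 0.047 in edgeR, and with only the 6 D5 libraries in the fit 0 rows were called. Ccl25 had 112, 73.4 and 99.4 in KO and 124, 121 and 167 in WT and did not pass (log2FC -0.53, DESeq2 FDR 0.074).

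At D7 KO cells held less RNA of several chemokines and interleukins. Of 29 rows with an FDR, 4 fell and 0 rose in KO, while 4.32% of all genes tested fell and 3.9% rose, and at FDR alone 7 were lower and 0 higher, against 15.7% and 13.1%. The median log2FC was -0.56, or -0.55 with rows at 0 at their bound, and -0.0437 over all genes, and 22 of the 29 rows were below 0, as were 54.9% of all genes. The 30 rows summed to 3060 to 3118 normalised counts in WT and 1972 to 2149.8 in KO D7 libraries.

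**Figure D4:**
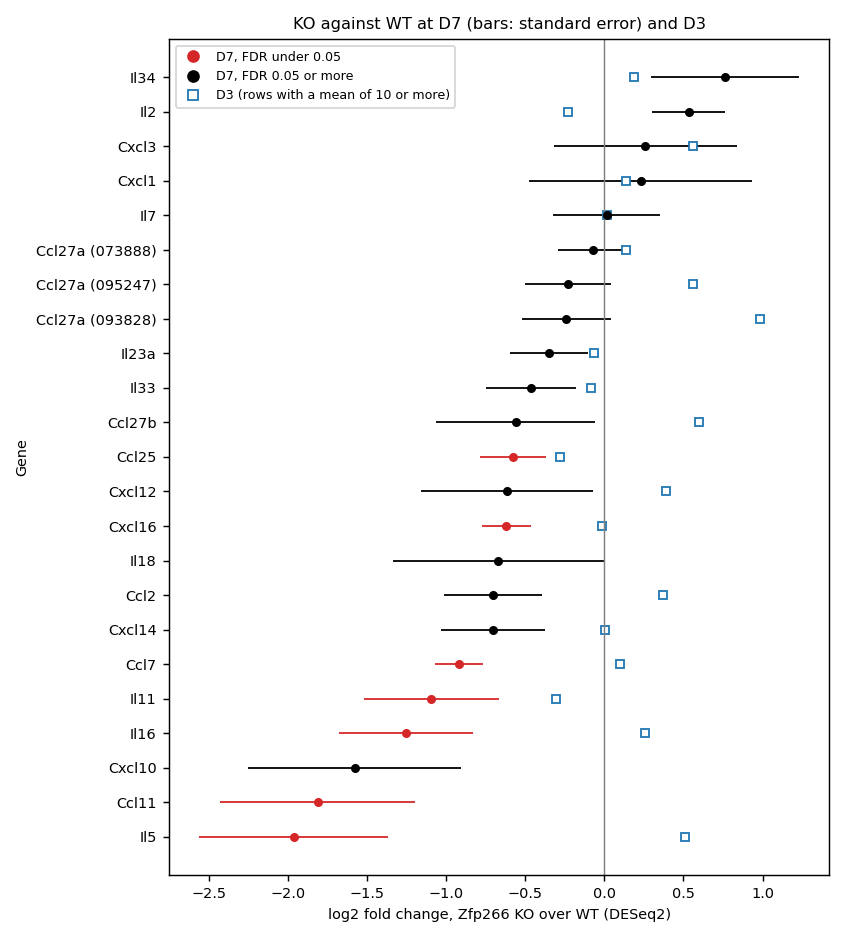
Log2 fold change between KO and WT cells at D7 with its standard error (points and bars) for rows with an FDR and a mean of at least 5 normalised counts in a group, with the D3 value of rows with a mean of at least 10 there as squares. Ccl7, Cxcl16, Il5, Il16, Ccl11, Il11 and Ccl25 passed FDR < 0.05, all with lower levels in KO.

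Ccl7 gave the most precise of these differences. It had 344, 341 and 339 normalised counts in KO and 712, 672 and 554 in WT. Every KO library lay below every WT library, and inside the range of the WT MEF libraries (log2FC -0.92, SE 0.15, DESeq2 FDR 3.2e-08), and the value passed FDR < 0.05 in 6 of 6 fits without 1 library. Cxcl16 had 613, 682 and 807 in KO and 1025, 1038 and 1166 in WT, again without overlap (log2FC -0.62, SE 0.15, DESeq2 FDR 5.0e-04), and also held in 6 of 6. Neither change reached an absolute log2FC of 1. Cxcl16 shares 552 exonic bases with Zmynd15 on the opposite strand. Ccl25 had 64.3, 44.6 and 75.3 in KO and 96.4, 91.6 and 86.4 in WT (log2FC -0.58, SE 0.21, DESeq2 FDR 0.023), which was lost in 3 of 6 such fits.

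The 4 rows that fell were lower in level. Il5 had 6.02, 0 and 5.45 normalised counts in KO and 18.3, 10.1 and 15.4 in WT (log2FC -1.96, SE 0.59, DESeq2 FDR 0.0054), with FDR 0.083 without KO D7 replicate 2. Il16, a CD4 ligand released from a larger precursor, had 11.0, 14.9 and 6.35 in KO and 31.4, 23.2 and 22.6 in WT (log2FC -1.26, SE 0.42, DESeq2 FDR 0.014), with FDR 0.073 without WT D7 replicate 1 and 0.097 without KO D7 replicate 3. In Il5 and Il16 the groups did not overlap. Il16 shares 1368 exonic bases with 2310044K18Rik and Stard5 on the opposite strand. Ccl11 had 7.03, 1.75 and 0 in KO and 7.1, 12.1 and 10.3 in WT (log2FC -1.81, SE 0.62, DESeq2 FDR 0.015), with KO replicate 1 just below WT replicate 1. Il11 had 17.1, 18.4 and 31.8 in KO and 31.4, 46.3 and 65.8 in WT, with KO replicate 3 just above WT replicate 1 (log2FC -1.09, SE 0.43, DESeq2 FDR 0.040), and was lost in 4 of 6 fits without 1 library. The count of 4 became 2 without WT D7 replicate 2 or KO D7 replicate 3 and 1 without KO D7 replicate 2, and with only the 6 D7 libraries in the fit it was 2.

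Other rows at D7 did not pass. Cxcl10 had 12, 12.3 and 19.97 normalised counts in KO and 39.6, 40.3 and 52.5 in WT, without overlap (log2FC -1.58, DESeq2 FDR 0.064), and it was called when only the 6 D7 libraries entered the fit. Ccl2 had 73.3, 56.0 and 61.7 in KO and 98.4, 93.6 and 118 in WT (log2FC -0.70, DESeq2 FDR 0.074). Cxcl14 had 317, 218 and 158 in KO and 367, 394 and 367 in WT (log2FC -0.70, DESeq2 FDR 0.093). Il2 was the row with higher values in every KO library, 89.4, 99.8 and 82.6 against 59.8, 72.5 and 55.6 (log2FC 0.53, DESeq2 FDR 0.069).

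**Figure D5:**
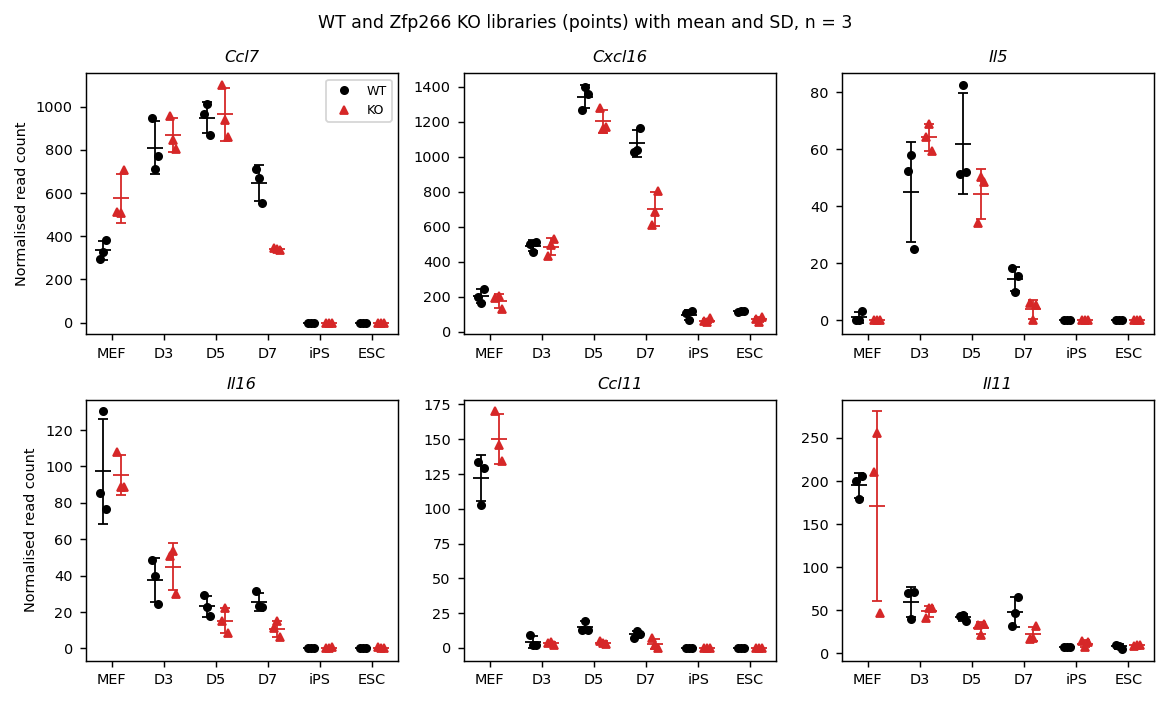
Normalised counts in each library of WT (black circles) and KO (red triangles) cells at the 6 stages, with mean and SD (n = 3), for Ccl7, Cxcl16, Il5, Il16, Ccl11 and Il11 on linear axes. For Ccl7 and Cxcl16 the 3 KO libraries at D7 lie below the 3 WT libraries, whereas at D3 the genotypes overlap.

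Whether the KO effect differed between D7 and D3 was tested as an interaction in the same fit. It was more negative at D7 for 5 of 20 rows with an FDR and more positive for 0, against 7.4% and 6.03% of all genes tested. These were Ccl7 (difference of log2FC -1.02, DESeq2 FDR 8.0e-05), Il5 (-2.47, FDR 0.0084), Il16 (-1.51, FDR 0.046), the Ccl27a row ENSMUSG00000093828 (-1.23, FDR 0.047) and Cxcl16 (-0.60, FDR 0.048). The Ccl7 difference passed in all 18 alternative fits run. In fits without 1 library, Il5 was lost in 1 of 10, Il16 and Ccl27a each in 9 of 12 and Cxcl16 in 10 of 12.

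Pluripotent cell markers moved with genotype at D7. Their sum was 5022 to 8861 normalised counts in WT and 23545 to 31174 in KO, and 6 of 6 were higher in KO at DESeq2 FDR < 0.05, 5 of them with a log2FC over 1. At D5 the sums were 1215 to 1426 and 2560 to 3760. Fibroblast markers summed to 32043 to 44754 in WT and 21462 to 39576 in KO D7 cells, with 1 of 8, Col1a1, fallen. At FDR alone Col1a1, Thy1 and Twist2 were lower in KO (log2FC -1.25, -0.72 and -0.58), against 15.7% of all genes tested. By that rule Fn1 was higher (log2FC 0.55), against 13.1%. Leukocyte markers summed to 676.5 to 1113 in WT and 1144 to 1313 in KO, with Laptm5 higher and Ptprc at 6.17 to 12.2 and 3.01 to 14.5. Endothelial markers summed to 651 to 979 in WT and 972 to 1178 in KO, with 1 of 6, Pecam1, risen (log2FC 1.77). Epithelial markers summed to 54181 to 59238 in WT and 53899 to 56250 in KO, with 1 of 4, Krt18, risen (log2FC 1.92). In WT D7 replicate 3, Lyz2 had 330.3 against 97.4 and 66.5 in the other WT D7 libraries. In WT iPSCs the fibroblast, leukocyte and endothelial sums were 20884 to 34883, 2529 to 3760 and 1098 to 2002. In WT ESCs these sums were 26009 to 32814, 2375 to 3021 and 1758 to 2011. In WT iPSCs the fibroblast sum was mostly Fn1, with a mean of 29284 against 2.10 for Col1a2. Pecam1, with a mean of 1232, made up most of the endothelial sum. From WT D7 to WT iPSCs, 6 of 8 fibroblast, 5 of 10 leukocyte and 1 of 6 endothelial markers fell. In the same lists 1, 3 and 2 rose, where 25% of all genes tested fell and 20% rose. The part of these markers in the chemokine differences at D7 was not tested.

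In iPSCs, 1 of 28 rows rose in KO, where 3.95% of all genes tested rose, and 2 passed at FDR alone, against 16.3%. Il34, a ligand of the Csf1 receptor, had 24.96, 18.2 and 4.04 normalised counts in KO and 6.05, 3.44 and 3.71 in WT clones. The groups overlapped (log2FC 1.84, SE 0.61, DESeq2 FDR 0.021), and the call was lost in 4 of 6 fits without 1 library, with FDR up to 0.202 without KO iPSC replicate 1. Cxcl16 was lower in KO at FDR alone, with 59.9, 52.9 and 75.8 against 106, 63.7 and 117 (log2FC -0.61, DESeq2 FDR 0.018), and was lost in 4 of 6. Cxcl12 varied among the clones, with 143, 20.8 and 117 in KO and 17.3, 29.3 and 54.7 in WT (log2FC 1.47, DESeq2 FDR 0.051).

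In ESCs, 0 of 20 rows were called in DESeq2, where 1.22% of all genes tested were, and edgeR called 0. Of all 30 rows, 2 had an unadjusted DESeq2 p under 0.05 (Cxcl16 and Il7). Cxcl16 was lower at FDR alone, as 9.86% of all genes tested passed, with 70.9, 54.5 and 81.6 normalised counts in KO and 111, 119 and 119.9 in WT ESCs. As separate clones or cultures are not stated for the ESC samples, p-values here measure the spread between these libraries. The groups did not overlap (log2FC -0.76, SE 0.19, DESeq2 FDR 0.0029), with FDR 0.056 without KO ESC replicate 2. At D7, in iPSCs and in ESCs, which are separate libraries, Cxcl16 was thus lower in KO at FDR < 0.05. In no row of 16 with an FDR did the KO effect differ between iPSCs and ESCs in DESeq2 or edgeR, against 1.53% of all genes tested. Of all 30 rows, with or without an FDR, 6 had an unadjusted DESeq2 p under 0.05.

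Receptors were read from lists of 22 chemokine receptors, of which 11 were in the table, and 40 interleukin receptors, of which 32 were. From WT MEFs to D3, 2 of the 11 chemokine receptors rose and 5 fell, where 19.5% of all genes tested rose and 25.4% fell. Cxcr6, the receptor of Cxcl16, had 0, 3.03 and 5.31 normalised counts in MEFs and 36.7, 15.0 and 22.3 at D3 (log2FC 2.99, SE 0.72, DESeq2 FDR 6.2e-05), and 0 in the 3 WT iPSC libraries, at least 15.1-fold below D7. Cxcr5, the receptor of Cxcl13, had no read in WT MEFs and 18.3, 22.0 and 30.0 at D3, at least 5.44-fold higher, while Cxcl13 itself went to 0. Cxcr4, the receptor of Cxcl12, fell from 22.6, 12.1 and 18 to 5.50, 1.00 and 3.88 (log2FC -2.32). Ccr1, a receptor of Ccl7 and Ccl9, had 137 to 162 in WT MEFs and 2.0 to 3.88 at D3 (log2FC -5.57). The scavenging receptors Ackr4 and Ackr1 fell too (log2FC -5.14 and -3.93). Cxcr6, Cxcr4 and the genes given below at FDR alone were chosen after their values were seen. Of the 32 interleukin receptors 10 rose and 17 fell, led by Il1r1 (log2FC -6.31), Il11ra1 (log2FC -5.91) and Il4ra (log2FC -3.25), with Il10rb higher (log2FC 1.86).

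Between KO and WT cells at D7, 0 of 11 chemokine receptors were called and 2 of 32 interleukin receptors fell, where 3.9% of all genes tested rose and 4.32% fell. These were Il12rb1 with 64.3, 77.0 and 152 normalised counts in KO against 197, 229 and 266 in WT (log2FC -1.24, SE 0.31, DESeq2 FDR 5.7e-04) and Il18r1 with 8.03, 14.0 and 19.97 against 22.3, 47.3 and 46.3 (log2FC -1.46, SE 0.43, DESeq2 FDR 0.0038). In both the genotypes did not overlap. At FDR alone 8 interleukin receptors were lower, among them Il10rb, Il4ra and Osmr (log2FC -0.80, -0.95 and -0.84), and 3 were higher, among them the LIF receptor Lifr (log2FC 0.88), against 15.7% and 13.1% of all genes tested. The median log2FC was -0.47 over the 32 and -0.0437 over all genes. Il12rb1 was also lower at D5 (log2FC -1.07, DESeq2 FDR 0.012), where 0.379% of all genes tested fell. In MEFs and at D3 no gene of either list was called, where 0.0287% and 0.162% of all genes tested were. In iPSCs 3 of 32 interleukin receptors, Il6ra (log2FC 2.65), Il10rb and Il1rl2, and 1 of 11 chemokine receptors, Ccr4, rose in KO. Of all genes tested there, 3.95% rose. Il6ra had 178, 117 and 17.2 in the KO and 20.7, 8.61 and 20.4 in the WT clones, so the groups overlapped, as they did for Il1rl2. Il10rb had a mean of 9.58 in the KO and 3.19 in the WT clones, the WT mean being near the floor. In ESCs 1 of 32 interleukin receptors and 0 of 11 chemokine receptors were called, where 1.22% of all genes tested were. This was Il1rap, a co-receptor for interleukins 1 and 33, which rose in KO, with 19.7, 26.3 and 17.05 against 8.03, 11.1 and 5.21 (log2FC 1.39, DESeq2 FDR 0.0060).

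Inhibitors and ligands outside the name rule and 25 NF-kB pathway genes completed the picture. Il1rn, the antagonist of interleukin 1, had 1066, 975 and 1009 normalised counts in WT MEFs and 62.3, 45.0 and 44.6 at D3 (log2FC -4.32, SE 0.24). At D7 it had 47.2, 51.6 and 60.8 in KO and 120, 137 and 103 in WT, and fell in KO (log2FC -1.17, SE 0.25, DESeq2 FDR 4.1e-05). Il1rn was the single called gene of 5, where 4.32% of all genes tested fell and 3.9% rose. Of the 25 NF-kB genes 4 rose and 9 fell from WT MEFs to D3, against 19.5% and 25.4% of all genes tested, and 0 rose and 13 fell from D7 to iPSCs, against 20% and 25%. Between KO and WT at D7, 0 of 25 were called, and at FDR alone 4 were higher, among them Nfkb1 and Tlr2 (log2FC 0.68 and 0.67), and 3 lower, among them Rela (log2FC -0.44), against 13.1% and 15.7% of all genes tested.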

How the data were processed

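RNA was extracted from 36 mouse samples, and stranded mRNA libraries were read as 75 base single ends. Per the labels and the study's methods, the authors checked reads with FastQC, trimmed them with Cutadapt, aligned them to GRCm38 with STAR, counted them per gene with Rsubread and normalised them with DESeq2. The strand setting of the counting is not given in the sources used here. The deposited counts are whole reads per gene and the deposited normalised counts (unit signal) are those counts divided by median-ratio size factors, which were recomputed within a relative difference of 9.26e-15. The authors' log counts, which they corrected for the date of library preparation, and their own fold changes and p-values were not used, since the labels give no such dates.

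Counts were fitted with DESeq2 1.42.0 in R 4.3.3 as 1 factor of 12 stage and genotype groups over all 36 libraries (Wald test, two-sided, no shrinkage, Benjamini-Hochberg over all genes). A gene was called at FDR < 0.05 and absolute log2FC > 1, and interactions at FDR < 0.05. Where a p is printed as FDR without another name it comes from this fit. Rows with no FDR had been removed by DESeq2 for low counts or for Cook's distance. Alternatives were edgeR 4.0.16 (quasi-likelihood, TMM), TMM factors in DESeq2, a filter of at least 10 counts in at least 3 libraries, only the groups compared, a replicate block, each library left out, FDR alone and, added after the data were seen, no Cook's distance limit. Both tests were checked on simulated counts. Levels per kilobase used exon lengths of GENCODE vM21 (GRCm38), which held all 30 identifiers, and promoter sequence came from RefSeq.

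The genes, lists and tests were chosen with earlier results of these data known. Named are rows called in a comparison with a group mean of at least 10 normalised counts (at most 25 per comparison by FDR), the 10 highest rows per kilobase, rows called in an interaction and at most 4 called genes per list and comparison by FDR. Depth was 19224103 to 39610939 counts per library. The lowest mean chi-square per gene between 2 libraries of a group was 3.16, where 1 is counting noise, so no 2 libraries of a group were copies.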

Additional observations from a re-analysis of the deposited data

Results flagged for a closer look

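The KO effect at D7 differed from that at D3 in 5 rows, by the interaction test of the DESeq2 fit (FDR < 0.05). The difference of log2FC was -1.02 for Ccl7, -2.47 for Il5, -1.51 for Il16, -1.23 for the Ccl27a copy ENSMUSG00000093828 and -0.603 for Cxcl16. In each the value was the KO against WT log2FC at D7 minus that at D3, so KO lay lower relative to WT at D7. For Ccl27a the KO libraries had 26.1, 28.0 and 18.2 normalised counts at D7 and 23.4, 18.8 and 20.4 at D3, and the WT libraries 22.3, 33.2 and 29.8 at D7 and 6.42, 8.0 and 17.4 at D3. The WT libraries at D3 were thus lower than the rest, and reads of this row can come from its near-identical copies.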

How the results depend on the processing

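Rows called in a comparison with a group mean of at least 10 normalised counts, or in an interaction, kept their direction under every alternative run. Rows not called could change, as Cxcl1 in MEFs, with log2FC -0.03 between KO and WT without KO replicate 3. At FDR alone 1 row passed between KO and WT in MEFs, 7 at D7, 2 in iPSCs, 1 in ESCs, and 5 between WT D5 and D7. With only the groups compared in the fit, 0 rows were called at D5, 2 at D7 (Il5, Il16 and Ccl11 were lost and Cxcl10 gained) and 0 in iPSCs. edgeR called 0 in iPSCs and 1 interaction between D7 and D3, and DESeq2 with TMM factors called 2 such interactions. Without the Cook's distance limit, chosen after seeing the data, 22, 20 and 18 rows were called from WT MEF to D3, D7 to iPSC and MEF to ESC, each gaining Cxcl5.

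Without 1 library the counts between KO and WT were 0 to 1 in MEFs (1, Cxcl5, without KO replicate 1 or 2), 0 at D3, 0 to 1 at D5 (0 without WT replicate 2 or 3 or KO replicate 2 or 3), 1 to 4 at D7, 0 to 2 in iPSCs (0 without WT replicate 2 or KO replicate 1, and 2 without WT replicate 3) and 0 in ESCs. For WT steps they were 20 to 23 from MEF to D3, 3 to 8 from D3 to D5, 1 to 3 from D5 to D7 (1 without D5 replicate 1 or D7 replicate 3), 18 to 21 from D7 to iPSC, 0 to 1 from iPSC to ESC and 17 to 19 from MEF to ESC. For interactions they were 1 to 4 between D7 and D3 and 0 to 1 between iPSC and ESC (1 without KO iPSC replicate 2 or 3 or WT ESC replicate 1).

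Replicate numbers were not taken as pairs in the main fit. The correlation of same-numbered deviations was above 0.1 in all 3 pairs in no comparison of KO and WT. Even so, at D3, D5 and D7 every KO library correlated best with the WT library of its own number. The same held for the later WT libraries from D3 to D5, D5 to D7 and D7 to iPSC. This is a hint from the data and not the design, and shared batches were not tested. With the replicate block 0 rows were called at D5, 3 at D7, 0 in iPSCs and 3 in the D7 and D3 interaction, and 22, 4, 21 and 18 from MEF to D3, D5 to D7, D7 to iPSC and MEF to ESC.

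The planned description of chemokine protein classes was not run, since no protein sequences were used here. With 3 libraries per group, rows under about 5 normalised counts are within the floor of 3 reads, and no change in them can be read.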
